A study of Mus musculus with 6 samples.

Results

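The 10 genes described here are feedback genes and transcription factor genes that are switched on through fibroblast growth factor (FGF) signalling and the kinase ERK: Spry1, Spry2, Spry4, Spred1, Spred2, Dusp4, Dusp6, Etv1, Etv4 and Etv5. They were taken as every probe on the arrays that carries 1 of these gene names, which gave 14 of the 55681 probes. Of these, 13 stood well above background on 3 or more of the 6 arrays, and through them all 10 genes entered the comparison of 21562 genes. Total RNA of mouse embryonic stem (ES) cells was hybridised to 6 Agilent arrays in 1 colour: 3 arrays of TKO cells, a knockout of Tet1, Tet2 and Tet3, and 3 arrays of WT cells. The WT cells are the BJ FF2 ES line, and the TKO cells were derived from that line. All dishes were cultured at the same time in 2i on inactivated mouse embryonic fibroblast feeders, then moved to matrigel without feeders, and each array holds RNA of 1 dish. No independent TKO line was measured, so p-values cover only the spread between dishes of 1 TKO population and of its parent. Which exons were altered is not given in the labels.

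FGF ligands bind receptor tyrosine kinases and switch on a relay of RAS, RAF, MEK and ERK, and ERK in turn induces genes that dampen the relay. Sprouty (Spry) and Spred proteins act as inhibitors of RAS activation, Dusp4 and Dusp6 are phosphatases that remove the activating phosphates from ERK, and Etv1, Etv4 and Etv5 form the PEA3 group of ETS transcription factors. In mouse ES cells FGF4 is a main source of ERK activity and prepares the cells to differentiate, and 2i medium holds an inhibitor of MEK together with an inhibitor of GSK3. Whether the inhibitors were kept during the matrigel step is not given in the labels. TET enzymes oxidise methylated cytosine in DNA, mostly in the sequence CG.

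RNA of 7 of the 10 genes was lower in TKO cells, Spred2 was higher, and Spry1 and Etv5 were not called in either direction. The falls ranged from 1.16-fold (Spred1) to 7.19-fold (Spry4), and 5 genes (Spry2, Spry4, Dusp4, Etv1 and Etv4) were called and at least 2-fold lower. Dusp4 and Dusp6 lay close to that limit, on either side of it. A gene was called when the Benjamini-Hochberg adjusted p of limma's moderated test, over all genes tested, was under 0.05. Differences between these groups were widespread: 59.7% of all tested genes were called, 29.7% lower and 30% higher, and 6.25% were called and at least 2-fold lower. TKO and WT values did not overlap for 8 of the 10 genes, against 67.6% of all tested genes. The median difference of the 10 genes was -1.04 (log2, TKO minus WT) and that of all tested genes was -0.01. Over single probes, 11 of the 13 kept probes of these genes were called, 10 of them lower, against 57.1% of all kept probes. The 10 include 1 Spred1 probe that was above background in WT cells only and has just a bound in TKO cells.

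**Figure D1:**
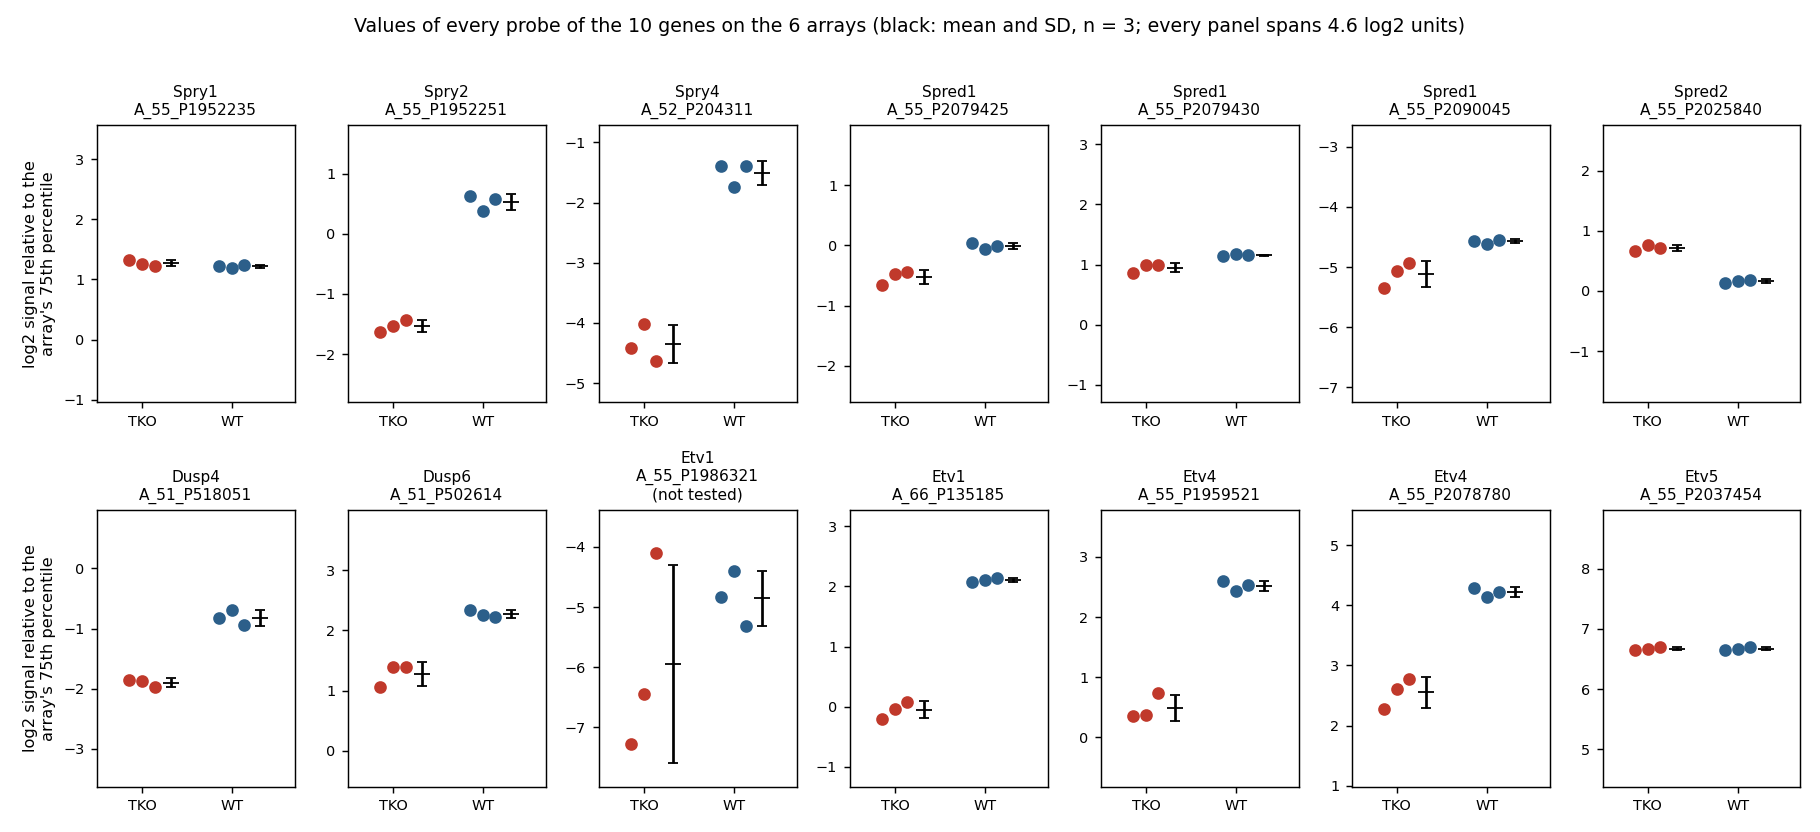
Each panel shows 1 of the 14 probes, with the log2 signal relative to the 75th percentile of the array on the y axis and 1 point for each of the 3 TKO arrays (left, red) and 3 WT arrays (right, blue), and black bars for mean and SD. The points of Spry1, Etv5 and the untested Etv1 probe overlap between the groups, those of Spred2 lie higher in TKO cells, and those of the other probes lie lower in TKO cells.

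Levels are given as log2 of the processed signal minus the log2 75th percentile of that array, so 0 means as bright as that percentile. Probes bind with different strength, so the level of a probe is compared between arrays. Differences between probes within an array and signals summed over probes, both given below, are likewise compared only between arrays. The 75th percentile of the 6 arrays ranged from 366.9 to 412.9 intensity units, and 51.9% to 58.5% of spots were well above background. All arrays were on 1 slide, with TKO replicate 1 and the 3 WT arrays in row 1 and TKO replicates 2 and 3 in row 2, where the spread of negative control spots was wider (14.1 and 15.1 intensity units, compared with 7.23 to 8.95 for row 1). Tet1 and Tet2 RNA was lower in TKO cells, with log2 differences of -1.37 to -1.16 for the 3 Tet1 probes and of -2.93 and -3.23 for 2 Tet2 probes, while another Tet2 probe (-0.43 ± 0.20 SE, adjusted p = 0.111) and the 1 measurable Tet3 probe (-0.24 ± 0.10 SE, adjusted p = 0.0904) were not called in limma's test. A probe outside an altered exon does not check the knockout.

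Among the transcription factors, Etv1 and Etv4 were lower in TKO cells and Etv5 was not called. Etv1 and Etv4 were each measured by a pair of probes, of which these are the first 30 of 60 bases, printed because the pair gave unequal readings for both genes.
Etv1 A_66_P135185: tcacaggccagtagcattttatgtatctgg
Etv1 A_55_P1986321: gactctgacttactctaacggatcaaaaga
Etv4 A_55_P2078780: taattccacctttgcctcttatgccagacc
Etv4 A_55_P1959521: agatccagtgttctattctggggacataca
The Etv1 probes lie at chr12:39593054-39593113 and chr12:39594622-39594681 on the plus strand, and the Etv4 probes at chr11:101631057-101631116 and chr11:101631322-101631381 on the minus strand (mouse build mm9, per the file headers). Whether a probe lies in a coding exon or a UTR was not examined, since no annotation of mm9 was used here.

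For Etv1, the brighter probe (A_66_P135185) read -0.20, -0.03 and 0.08 on the TKO arrays and 2.08, 2.11 and 2.14 on the WT arrays. The WT dishes were nearly alike, the TKO dishes were spread a little more, and the groups lay far apart. The difference was -2.16 ± 0.08 (SE, n = 3 each), 4.46-fold lower in TKO cells, with an adjusted p of 1.05e-05 in limma's test. The other Etv1 probe was well above background on 1 TKO array and 1 WT array and was not tested. Its values lay between -7.28 and -4.10 on the TKO arrays and between -5.32 and -4.41 on the WT arrays, near the lower end of what the arrays can measure, and they overlapped.

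Etv4 read 2.27, 2.61 and 2.78 on the TKO arrays and 4.30, 4.13 and 4.22 on the WT arrays with probe A_55_P2078780. Every TKO dish lay below every WT dish, and TKO replicate 1 was the lowest. The difference was -1.66 ± 0.14 (SE, n = 3 each), 3.16-fold lower in TKO cells (limma, adjusted p = 0.00019). The second Etv4 probe (A_55_P1959521) read 0.36, 0.38 and 0.74 in TKO cells and 2.60, 2.43 and 2.54 in WT cells. It gave a larger fold in the same direction, 4.08-fold lower (-2.03 ± 0.12 SE, limma over all probes, adjusted p = 6.29e-05).

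Etv5, which like Etv1 and Etv4 encodes a PEA3-group activator, read 6.65, 6.66 and 6.70 in TKO cells and 6.65, 6.66 and 6.70 in WT cells (A_55_P2037454, chr16:22381387-22381446, minus strand, mm9). The groups overlapped fully and the spread within each was small (SD 0.026 in both). The difference was -0.003 ± 0.036 (SE, n = 3 each), with a 95% confidence interval from -0.09 to 0.09 (limma, adjusted p = 0.947). By this interval the ratio of TKO to WT signal lay between 0.938 and 1.06 in this setting. With arrays centred on their median the Etv5 difference was -0.198, outside that interval, and was still not called (limma, adjusted p = 0.0555). The probe was not saturated on any array.

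The Sprouty genes also differed among themselves. Spry2 read -1.64, -1.53 and -1.43 on the TKO arrays and 0.63, 0.38 and 0.58 on the WT arrays (A_55_P1952251). All TKO values were negative and all WT values positive on this scale, with no overlap. The difference was -2.07 ± 0.09 (SE, n = 3 each), 4.19-fold lower in TKO cells (limma, adjusted p = 1.74e-05). Spry4 read -4.42, -4.02 and -4.64 in TKO cells and -1.40, -1.74 and -1.40 in WT cells (A_52_P204311). It was well above background on 2 of the 3 TKO arrays and on all 3 WT arrays, so the TKO level was close to the floor of the measurement. The difference, -2.85 ± 0.18 (SE, n = 3 each) or 7.19-fold lower in TKO cells, was the largest of the 10 genes in this setting (limma, adjusted p = 7.59e-05). Its size depended on the background correction: with normexp on the mean and background signals it was -1.45, smaller than that of Etv1 (-2.04) under the same correction, and still called lower.

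Spry1, the third Sprouty gene measured, read 1.33, 1.26 and 1.23 in TKO cells and 1.23, 1.19 and 1.24 in WT cells (A_55_P1952235). The ranges overlapped. The difference was 0.06 ± 0.04 (SE, n = 3 each), with a 95% confidence interval from -0.05 to 0.16, a ratio of TKO to WT between 0.968 and 1.12 (limma, adjusted p = 0.294). It was not called under any setting tried, and its sign turned to -0.14 when arrays were centred on their median.

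The Spred genes, whose proteins bring the RAS-inactivating protein neurofibromin to the membrane, moved by less and in opposite directions. Spred1 was measured by 3 probes, shown by their first 30 of 60 bases because they gave different sizes of change.
Spred1 A_55_P2079430: cattaatattttcagtttgtttaaccactt
Spred1 A_55_P2079425: gtgatatgctccagcaaacaggttaaaaat
Spred1 A_55_P2090045: caacctcttcattgtttaatgttctggtct
They lie at chr2:117005906-117005965, chr2:117004952-117005011 and chr2:116998491-116998550 on the plus strand (mm9), and the array design assigns the third of them to another transcript of the gene than the other two. The brightest, A_55_P2079430, read 0.86, 1.00 and 0.99 in TKO cells and 1.15, 1.17 and 1.15 in WT cells. The groups did not overlap, and the shift was small: -0.21 ± 0.05 (SE, n = 3 each), 1.16-fold lower in TKO cells (limma, adjusted p = 0.0128). Probe A_55_P2079425 read -0.66, -0.48 and -0.44 in TKO cells and 0.04, -0.06 and -0.01 in WT cells, which is 1.43-fold lower (-0.52 ± 0.07 SE, limma over all probes, adjusted p = 0.00168). Probe A_55_P2090045 was not well above background on any TKO array, where it read -5.34, -5.07 and -4.93, against -4.56, -4.61 and -4.55 on the WT arrays. Set against the lowest signal well above background on each TKO array, that probe was at least 1.01-fold lower in TKO cells, a bound close to no change, and it had passed the filter through the WT arrays alone. With the mean of the 3 probes, A_55_P2090045 included, in place of the brightest, the Spred1 difference was -0.42. The brightest probe differed by -0.40 with arrays centred on their median.

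Spred2 was the only one of the 10 genes called higher. It read 0.66, 0.77 and 0.71 in TKO cells and 0.13, 0.17 and 0.19 in WT cells (A_55_P2025840, chr11:19922416-19922475, plus strand, mm9). Each TKO dish lay above each WT dish. The difference was 0.55 ± 0.04 (SE, n = 3 each), 1.46-fold higher in TKO cells (limma, adjusted p = 0.00016), and 0.36 with median centring. Genes of chromosome 11 as a whole were shifted the same way, with a median difference of 0.34, and Spred2 stood 0.21 above that median.

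Both ERK phosphatase genes were lower in TKO cells. Dusp4, which encodes a nuclear phosphatase, read -1.85, -1.87 and -1.98 in TKO cells and -0.82, -0.69 and -0.95 in WT cells (A_51_P518051). The groups were well separated, with a difference of -1.08 ± 0.08 (SE, n = 3 each), 2.11-fold lower in TKO cells (limma, adjusted p = 0.000119). Dusp6, which encodes a cytoplasmic phosphatase that acts chiefly on ERK, read 1.05, 1.39 and 1.39 in TKO cells and 2.35, 2.26 and 2.22 in WT cells (A_51_P502614). TKO replicate 1 was again the lowest of the TKO dishes. The difference was -0.99 ± 0.10 (SE, n = 3 each), which left 50.2% of the WT signal (limma, adjusted p = 0.000507). Which of these 2 genes was at least 2-fold lower depended on the setting. Dusp4 differed by -0.79 with normexp, and Dusp6 by -1.19 with arrays centred on their median.

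**Figure D2:**
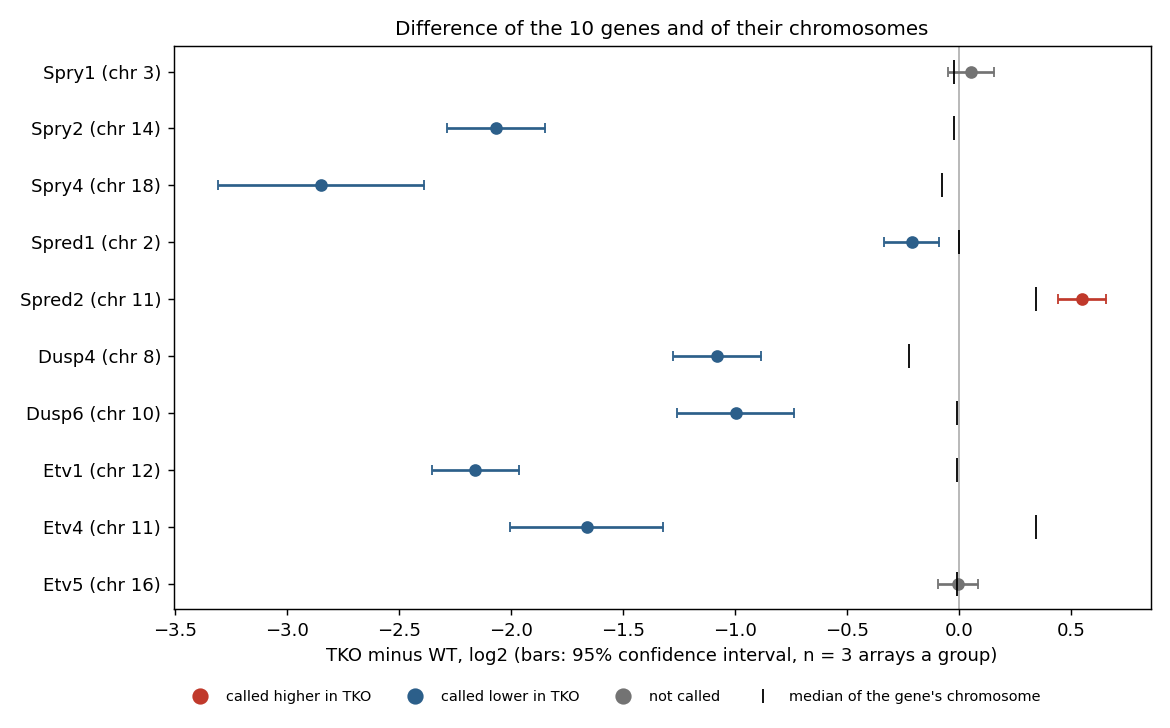
The x axis gives the difference TKO minus WT (log2) of each of the 10 genes as a point with its 95% confidence interval (n = 3 arrays a group), coloured by call, and a black tick marks the median difference of all tested genes on the same chromosome. Spry4 (-2.85), Etv1 (-2.16), Spry2 (-2.07) and Etv4 (-1.66) lie farthest to the left, the intervals of Spry1 and Etv5 cross 0, and the ticks of chromosome 11 lie at 0.34.

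Members of 1 family were then set against each other within each array, a comparison added after the data were seen that no constant scaling of an array can move. The difference between Spry2 and Spry1 fell by 2.12 on the log2 scale in TKO cells against WT cells, that between Spry4 and Spry1 fell by 2.90, that between Etv1 and Etv5 fell by 2.16, that between Etv4 and Etv5 fell by 1.66, and that between Spred1 and Spred2 fell by 0.76. In these 5 pairs the TKO and WT arrays did not overlap. Each of them sets a gene called lower against a gene not called or called higher. Their separation thus largely follows from those calls and adds no support to them. With normexp the shift of Spry4 against Spry1 was -1.46, and Spry4 was near background in TKO cells. The other 4 were then between -2.00 and -0.59. The difference between Dusp4 and Dusp6 ranged from -3.37 to -2.90 on the TKO arrays and from -3.17 to -2.94 on the WT arrays, which overlap, and its shift was -0.08, or 0.12 with normexp. With 3 arrays a group, an exact two-sided permutation test cannot give a p below 0.1. It gave 0.1 for each of the 5 pairs and 0.6 for Dusp4 and Dusp6, or 0.12 and 0.6 after Benjamini-Hochberg adjustment over the 6 pairs.

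The shifts were read against those of the surrounding genes. Genes of chromosome 11 had a median difference of 0.34, and within 500 kb of the Etv4 probe 25 of 36 tested genes were called higher and 3 lower, with a median of 0.44. Etv4 thus fell where its neighbours were mostly higher, and relative to the chromosome median its difference was -2.00. Dusp4 lies on chromosome 8, whose genes had a median of -0.22, and its difference relative to that median was -0.86. The medians of the other chromosomes that hold these genes lay between -0.07 (Spry4) and 0.003 (Spred1). Within 500 kb, 1 of 5 tested neighbours of Spry2 was called lower and 1 higher (median 0.09). The lowest of them, an entry with no gene symbol, differed by -2.15, about as much as Spry2. Of 16 tested neighbours of Spry4, 3 were called lower and 2 higher (median 0.02). The lowest, named by a genomic interval only, differed by -2.18. Whether these lowest entries are genes separate from Spry2 and Spry4 was not examined. Of 5 tested neighbours of Dusp6, 2 were called lower and 0 higher (median -0.22). Their differences ranged from -1.59, a larger fall than that of Dusp6, to -0.05. Etv1 had 0 tested neighbours in that window.

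In row 1 of the slide alone, which holds 1 TKO array and the 3 WT arrays, the differences were -1.95 for Etv4, -2.31 for Etv1, -1.22 for Dusp6, -1.03 for Dusp4, -2.17 for Spry2, -2.90 for Spry4, -0.30 for Spred1 and 0.50 for Spred2. The lone TKO array is assumed there to vary as the others do. All 8 calls were made in that setting too, and a fit with the row as a block gave equal values, because row 2 holds TKO arrays only. The part of the row in these values was not tested further.

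**Figure D3:**
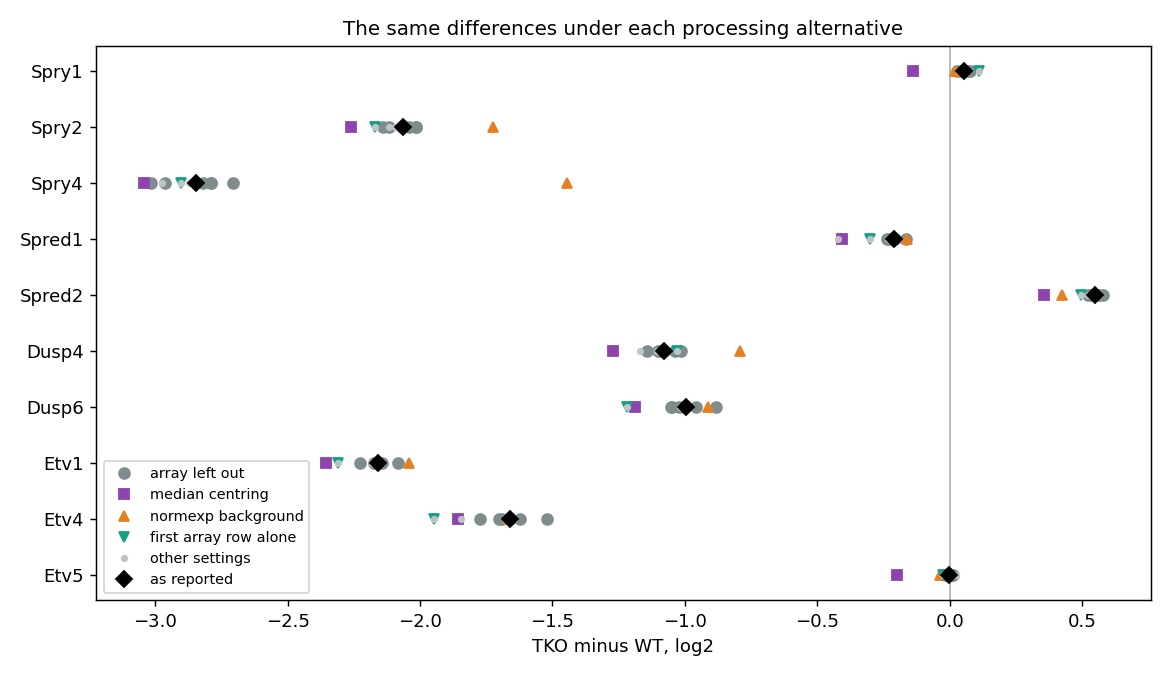
The x axis gives the difference TKO minus WT (log2) of each gene under each processing setting, with 1 symbol per setting and a black diamond for the value reported above. The settings of a gene mostly lie close together, apart from Spry4, whose difference was -1.45 with the normexp background correction and -2.85 in the values reported above.

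Promoter sequence is shown for 2 genes that fell and 2 that were not called, from the same families, since TET enzymes act mostly on CG. The RefSeq promoter table given for build GRCm38.p6 held 9 promoters that match 7 of the 10 genes (Dusp6, Etv1, Etv5, Spred1, Spred2, Spry1 and Spry2). The 250 bases before the annotated start follow, each in its gene's own direction with every CG in capitals. They are Etv1 at chr12:38779832-38780081 (plus strand), Spry2 at chr14:105896820-105897069 (minus strand), Etv5 at chr16:22439571-22439820 (minus strand) and Spry1 at chr3:37639697-37639946 (plus strand). For Etv1 and Etv5, which have 2 entries each, the one with more CG is shown.
Etv1: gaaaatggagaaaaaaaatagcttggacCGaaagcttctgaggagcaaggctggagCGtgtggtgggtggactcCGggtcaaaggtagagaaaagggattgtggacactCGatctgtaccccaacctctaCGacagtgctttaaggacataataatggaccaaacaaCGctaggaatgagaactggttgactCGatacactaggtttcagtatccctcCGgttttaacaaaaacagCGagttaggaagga
Spry2: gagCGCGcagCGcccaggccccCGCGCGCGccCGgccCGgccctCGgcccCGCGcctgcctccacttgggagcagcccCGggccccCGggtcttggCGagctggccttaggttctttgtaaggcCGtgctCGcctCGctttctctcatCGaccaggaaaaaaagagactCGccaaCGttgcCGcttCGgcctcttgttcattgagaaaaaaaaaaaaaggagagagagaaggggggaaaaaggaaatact
Etv5: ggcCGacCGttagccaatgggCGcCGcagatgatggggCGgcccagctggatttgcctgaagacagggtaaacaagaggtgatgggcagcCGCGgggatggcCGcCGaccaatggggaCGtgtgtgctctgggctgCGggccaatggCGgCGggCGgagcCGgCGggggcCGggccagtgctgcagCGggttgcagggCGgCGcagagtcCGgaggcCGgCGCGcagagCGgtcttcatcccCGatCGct
Spry1: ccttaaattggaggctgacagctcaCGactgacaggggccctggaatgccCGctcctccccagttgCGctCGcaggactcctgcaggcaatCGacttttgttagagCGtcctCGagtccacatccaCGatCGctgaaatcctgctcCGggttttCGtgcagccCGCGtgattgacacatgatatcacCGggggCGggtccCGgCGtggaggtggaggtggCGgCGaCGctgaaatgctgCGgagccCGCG
These windows hold 9 CG (Etv1), 23 (Spry2), 27 (Etv5) and 23 (Spry1). The other Etv1 entry holds 1 and the other Etv5 entry 18, while Dusp6 holds 16, Spred1 31 and Spred2 12. Over all 32851 promoters of the table the median is 6, and over the 9 promoters here it is 18. Spry2, which fell, and Spry1, which was not called, thus hold the same number of CG in these windows. DNA methylation was not measured on these arrays.

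The same 250 bases were searched on both strands for CCGGAA (a strict form of an ETS site), TGANTCA (AP-1), TGACGTCA (CRE) and GGGCGG (a GC box). Shorter ETS sequences such as GGAA, which the printed Etv1, Spry2 and Spry1 windows hold, were not counted. The search thus does not show whether ETS sites are absent. GGGCGG was found in 4 of the 9 promoters (the Etv5 entry printed above, Spred1, Spred2 and Spry1), against 32.7% of all promoters of the table. The other 3 motifs were found in 0 of the 9, against 12% of all promoters for CCGGAA, 6.75% for TGANTCA and 1.55% for TGACGTCA.

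Upstream in the pathway, 4 of the 17 tested FGF ligand genes were higher in TKO cells, 3 were lower and 10 were not called (median difference -0.04). Fgf4, the main ligand of ES cells, was higher: it read 6.99, 6.94 and 6.85 on the TKO arrays and 6.48, 6.48 and 6.44 on the WT arrays, a difference of 0.46 ± 0.05 (SE). Fgf5, a ligand of the later epiblast, was too dim to stand well above background in any WT dish and read -2.25, -1.86 and -1.77 on the TKO arrays, at least 8.82-fold higher. It passed the filter through the TKO arrays alone, and the bound uses the lowest signal well above background on each WT array. Fgf21, an endocrine ligand, was higher by 2.20 ± 0.07, and Fgf13, an intracellular family member, by 0.61 ± 0.15. Fgf15, another endocrine ligand, fell by 2.57, Fgf3 by 0.85 and Fgf18 by 0.25. Fgf2, Fgf9, Fgf12, Fgf16 and Fgf20 were on the arrays and did not pass the filter on dim probes.

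Of 6 tested receptor and co-receptor genes, 2 were higher, 2 lower and 2 not called (median -0.08). Fgfr1, the main FGF receptor of ES cells, had a mean level of 4.20 in TKO cells and 4.28 in WT cells and was not called (-0.08 ± 0.05 SE, limma, adjusted p = 0.226), nor was the decoy-like receptor gene Fgfrl1. Fgfr2 was higher by 0.67 ± 0.13 and Fgfr4 by 0.47 ± 0.05. Fgfr3 fell by 0.93, and Klb, the co-receptor for endocrine ligands, fell by 0.60.

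Adaptor, RAS, RAF, MEK and ERK genes moved both ways: of 23 tested, 10 were higher, 8 lower and 5 not called (median 0.05). Genes that were higher included the scaffold gene Ksr1, by 0.89 ± 0.08 (SE), and the receptor adaptor gene Frs2, by 0.45 ± 0.04. Shoc2, whose protein promotes RAF activation, fell by 0.64, the adaptor gene Gab1 by 0.35 and the ERK-dependent kinase gene Rps6ka2 by 0.33. Those not called, named after their values were seen, included Sos1, Map2k1, Map2k2 and Rps6ka1.

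Of 7 further inhibitors of RAS signalling tested, 1 was higher, 2 were lower and 4 were not called (median -0.06). Rasa3, a gene of a RAS GTPase-activating protein, lies on chromosome 8 and fell by 1.75, reading 1.39, 1.36 and 1.34 in TKO cells and 3.13, 3.08 and 3.13 in WT cells. Rasa1, of the same class, fell by 0.28, and Il17rd (Sef), an FGF pathway inhibitor, was higher by 0.29 ± 0.04. Spry3 and Spred3 did not pass the filter on dim probes.

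Of 7 other MAP kinase phosphatase genes tested, 4 were higher in TKO cells, 1 was lower and 2 were not called. Their median of 0.93 is the value of Dusp10, and it was 0.60 without TKO replicate 1, 0.51 where the filter for all 6 arrays left out Dusp8, and 0.30 with normexp. Dusp1, an immediate early phosphatase gene, read 1.96, 1.60 and 1.75 on the TKO arrays and 0.53, 0.65 and 0.51 on the WT arrays, a difference of 1.20 ± 0.10 (SE). Dusp2 was higher by 0.96 ± 0.14. Dusp8 was well above background in no WT dish, passed the filter through the TKO arrays alone and was at least 4.58-fold higher. Dusp10, named here after its values were seen, read -2.15, -3.16 and -3.14 in TKO cells and -3.56, -4.05 and -3.63 in WT cells. TKO replicate 1 stood above the other two, and the difference was 0.93 ± 0.31 (SE, limma, adjusted p = 0.0448). It was 0.60 without TKO replicate 1, and the call was lost without any 1 of the WT replicates (adjusted p from 0.0754 to 0.128) and with median centring, quantile normalization, normexp or no filter on dim probes. Dusp16 fell by 0.39. Dusp7 and Dusp9 were not called.

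Other ETS factor genes were also mixed, with 7 of 15 tested higher, 6 lower and 2 not called (median 0.02). Etv2, a regulator of blood and vessel precursors that lies outside the PEA3 group, was higher by 1.86 ± 0.08, Spib by 1.24 ± 0.22 and the epithelial factor gene Elf3 by 1.04 ± 0.08. Elk3, of the ternary complex factors that ERK phosphorylates, fell by 1.59, Ets2 by 0.76 and Spdef by 0.53. Among immediate early and growth genes, 5 of 13 tested were higher, 3 lower and 5 not called (median 0.16). Egr1, often used as a readout of ERK activity, read -3.36, -3.35 and -3.60 in TKO cells and -3.40, -3.11 and -2.95 in WT cells, which overlap, and was not called (-0.28 ± 0.13 SE, limma, adjusted p = 0.123). Fosl1 was higher by 0.96 ± 0.13, Jun by 0.84 ± 0.05 and the cyclin gene Ccnd1 by 0.45 ± 0.04. Junb, well above background on 1 of 3 TKO arrays and on all 3 WT arrays, fell by 1.72, Ier2 by 0.69 and Fos by 0.47.

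**Figure D4:**
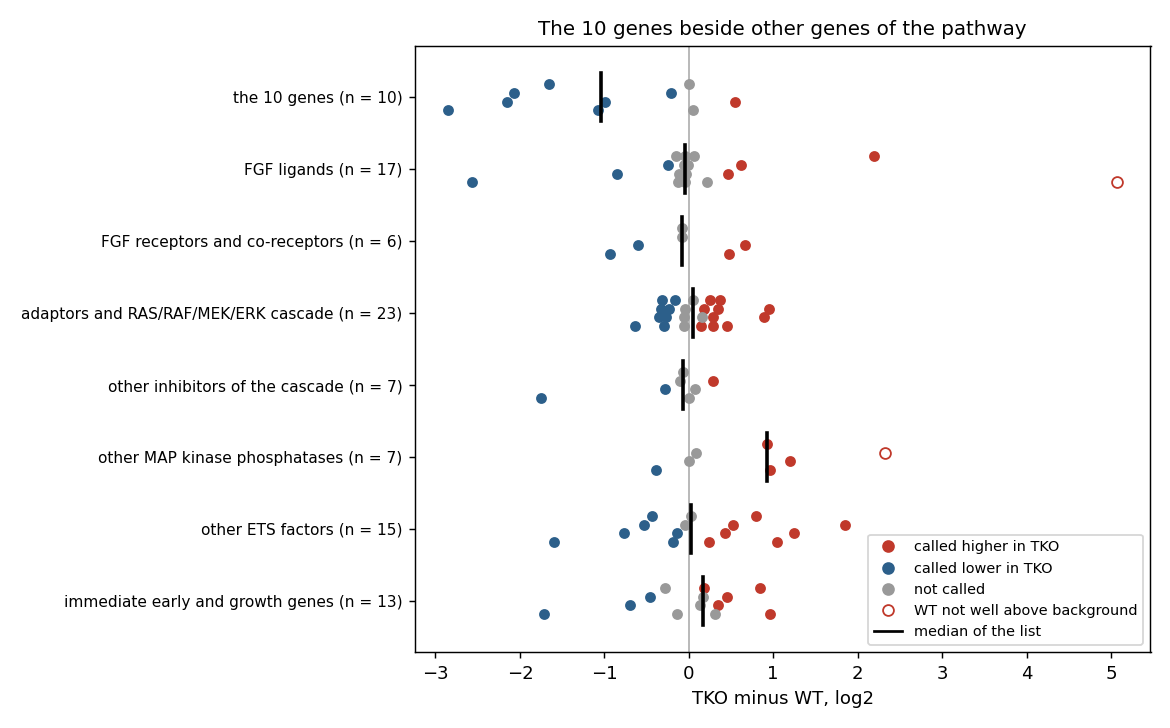
Each point is 1 tested gene at its difference TKO minus WT (log2, x axis), coloured by call, in rows for the 10 genes and for 7 other lists of pathway genes, with a black line at each median and open circles for genes too dim in every WT dish to stand well above background. The line of the 10 genes lies at -1.04, that of the other MAP kinase phosphatases at 0.93, and those of the other lists between -0.08 and 0.16.

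Several calls in these lists depended on the setting, in a check added after the data were seen. Median centring took the adaptor, RAS, RAF, MEK and ERK genes to 3 higher and 11 lower, and it called Fgfr1 (-0.28) and Egr1 (-0.48) lower and no longer called Il17rd. Egr1 was also called lower with quantile normalization, with normexp and without WT replicate 1 (-0.40). With the mean of the probes of a gene, Fgfr3 and Fgfr4 were no longer called and Fgfr2 was higher by 1.79. Klb, Rasa1, Rps6ka2, Spib and Fos were not called in row 1 alone, and Fgf13 was not called with quantile normalization. Fos also lost its call without any 1 replicate other than TKO replicate 1, and Spdef lost it without TKO replicate 1 or 2 or WT replicate 2 or 3. With normexp, dim genes differed by less: Fgf21 by 0.94, Fgf15 by -1.43, Fosl1 by 0.26, Junb by -0.59 and Spib by 0.40. Values and counts of these lists were not taken relative to chromosome medians. Of the tested pathway genes named, Rasa3, Gab1, Fgfr1, Junb and Ier2 lie on chromosome 8 (median -0.22). Ksr1, which was higher, and Fgf18, which was lower, lie on chromosome 11 (median 0.34).

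The bulk RNA of a dish cannot tell fewer cells of a type from less RNA per cell. Of 8 stem cell marker genes, 0 were higher, 6 lower and 2 not called (median -0.39), and Zfp42 (Rex1) fell by 4.07. Pou5f1 (4.66 in TKO cells, 5.08 in WT cells) and Nanog (6.98 in TKO cells, 7.29 in WT cells) were well above background on all arrays. Of 13 tested fibroblast markers, which feeder cells would carry, 10 were higher, 1 was lower and 2 were not called, and their summed signal (log2) was 6.06 to 6.11 on the TKO arrays and 5.35 to 5.39 on the WT arrays. Bright probes weigh most in this sum, among them Tagln (mean 4.51 in TKO cells, 3.54 in WT cells) and Acta2 (4.00 in TKO cells, 2.80 in WT cells). Col1a1, on chromosome 11 (median 0.34), was higher by 0.58 in TKO cells and was measured in WT cells too. Pdgfrb fell by 2.26, Dcn and Twist1 were not called, and Lum did not pass the filter. Of 5 tested trophoblast markers, 4 were higher and 1 lower. Their median was 2.28, or 1.59 with Cdx2 and Hand1, which were not well above background in WT cells, at their lower bounds. Their summed signal was 4.29 to 4.35 in TKO cells and 3.42 to 3.48 in WT cells. Of 7 primitive endoderm markers, 3 were higher, 2 lower and 2 not called (median 0.32), with a summed signal of -0.44 to -0.16 in TKO cells and -0.49 to -0.43 in WT cells. The part of these cell types in the values of the 10 genes was not tested.

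Genes whose 6 array values followed a member most closely were found by the root mean square difference of the values, each centred on its own mean, over 13998 genes with a symbol. For Spred2, the gene with the largest rise, these were Bmf, Nt5c and Gpatch8, at 0.014, 0.015 and 0.016 log2 units, with differences of 0.54, 0.57 and 0.54. Nt5c and Gpatch8 also lie on chromosome 11. For Spry4, the gene with the largest fall in this setting though not with normexp, they were Ccm2l, Wfdc15a and Adam23, at 0.12, 0.15 and 0.17 log2 units, with differences of -2.91, -2.87 and -2.84. With 6 arrays in 2 groups, closeness reflects mostly the size of the difference between the groups.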

How the data were processed

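The arrays had been read with Agilent Feature Extraction, for which the submitters' processing notes give version 11.5.1.1. Per the file headers, the deposited processed signal of each spot is an intensity on a linear scale, background-subtracted within the array and not normalized between arrays. The deposited flags (well above background, saturated, outlier) are 0 or 1, an other unit. The authors also deposited a table of values that matched log2 of the processed signal up to a constant per array (r of at least 0.9999997), with scale and centring not given in the sources used here. It served as an alternative.

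Control and outlier spots were left out, spots of a probe averaged, and each log2 value taken relative to its array's 75th percentile. Of 55681 probes, 30734 were well above background on at least 3 of 6 arrays. Each gene was represented by its brightest kept probe (21562 genes), and probes of the 10 genes were also fitted singly. TKO was compared with WT in limma 3.58.1 (lmFit, eBayes; R 4.3.3), two-sided, with Benjamini-Hochberg adjustment over all genes or all probes and calls at 0.05. The script was tested on simulated data. Array number limits precision. Replicate numbers did not pair the samples (correlations of same-numbered deviations -0.06, -0.008 and 0.002).

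The 10 genes and all lists were chosen with earlier results of these data known. Named genes were all 10 members; up to 3 higher and 3 lower called genes of each list with the largest differences; Fgf4, Fgfr1, Fgfr2, Egr1, Tet1, Tet2 and Tet3; markers; and the 3 genes closest to the members with the largest rise and fall. Markers given, and genes named because few were left in a count, were picked after seeing values. Some genes that the rule names are not reported individually. Symbols follow the array design.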

Additional observations from a re-analysis of the deposited data

How the results depend on the processing

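Of the 10 genes, 7 were called lower and 1 higher in every one of 17 settings but one: requiring a probe to be well above background on all 6 arrays left Spry4 untested, with 6 lower and 1 higher of 9. The settings were normexp background correction, median centring, quantile normalization, both other filters on dim probes, the mean of a gene's probes, the authors' deposited table, the replicate block, the array row as a block or alone, and each array left out. Median centring moved the median of all genes to -0.20 and the split of calls to 3874 higher and 9315 lower (29.4% higher), against 6464 higher and 6398 lower (50.3% higher). It also reversed Spry1 to -0.139 and took Etv5 to -0.198. Etv5 reversed with quantile normalization (0.0231), and with an array left out it lay between -0.0179 and 0.0120. Neither gene was called in any of these, and the cause was not tested. Relative to the chromosome median, Dusp4 was -0.859, Etv4 -2.00 and Spred2 0.207. The replicate block, whose numbers did not pair the samples (0 of 6 arrays correlated best with their own number), left 11619 genes called against 12862. Signal over background limits Spry4, Junb and the third Spred1 probe in TKO cells and Fgf5 and Dusp8 in WT cells, and the size of change of dim genes in the other lists.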
